A study of Homo sapiens with 38 samples.

Results

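The genes followed here mark the primitive streak and were taken by symbol from a table of 57133 genes: TBXT, MIXL1, EOMES, GSC, LHX1, MESP1 and APLNR, that is 7 of 57133. The cells were Shef6, an established human embryonic stem cell line, and every library came from that 1 line after adaptation to serum coating in the naive state. Naive cells were kept in PXGL medium (written PXGLY in part of the labels) at day 0, either on dishes coated with serum or on Geltrex (a basement membrane extract). PXGL itself contains XAV939, beside LIF and inhibitors of MEK and PKC. The same cells were plated on Geltrex and differentiated in N2B27, a basal medium without added growth factors, for 2, 3, 4, 6 or 8 days, in E8 for the same days, or in mTeSR for 4, 6 or 8 days. E8 and mTeSR are commercial media that contain FGF and a TGFβ family ligand. A second experiment (Ex2) held naive cells on Geltrex and day 4 cultures in N2B27, in N2B27 with XAV (XAV939, an inhibitor of tankyrase that lowers canonical WNT signalling), and in FAX, which is FGF2, Activin A and XAV in N2B27. The names of that experiment's 2 naive libraries in the count table carry day 4 while their sample titles give day 0. They were taken as naive day 0 from the titles. The 38 libraries formed 19 groups of 2, and part of the study's legends call such replicates technical, so p-values measure the spread between those libraries only.

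The primitive streak is the site on the epiblast where mesoderm and endoderm form at gastrulation. WNT and NODAL signals, with BMP upstream of them, switch on T-box factors (TBXT, also called brachyury, and EOMES) and homeobox factors (MIXL1, GSC, LHX1), and MESP1 follows in the mesoderm that leaves the streak. APLNR, which is no transcription factor but the receptor for apelin and ELABELA (encoded by APELA), is expressed in early mesoderm. Naive cells correspond to the preimplantation epiblast and pass through an interval called capacitation before they can answer such signals.

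Counts were scaled to a common total per library and are given as CPM. The libraries held 3038046 to 5612354 counts (median 4427277), and a count of 3, taken as the floor, was worth 0.520 to 1.06 CPM. A gene was called when the Benjamini-Hochberg adjusted p from edgeR's quasi-likelihood test was under 0.05 and the log2 fold change exceeded 1 in size. All adjusted p-values below are of that kind, over the 16674 genes tested. Of the 7 members 6 were tested, since MESP1 did not pass the filter on low counts. Replicate libraries correlated at r = 0.965 to 0.986 over genes (Pearson, log2 CPM) and no pair agreed within sampling noise. In bulk RNA, fewer cells that express a gene and less RNA in each cell cannot be told apart.

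The members lay on 7 chromosomes (GRCh38, GENCODE v44). TBXT was annotated at chr6:166157656-166168700 on the minus strand, MIXL1 at chr1:226223618-226227060 on the plus strand and EOMES at chr3:27715949-27722711 on the minus strand. GSC was at chr14:94768223-94770113 (minus), LHX1 at chr17:36936785-36944612 (plus), MESP1 at chr15:89749875-89751249 (minus) and APLNR at chr11:57233577-57237250 (minus). TBXT overlapped the lncRNA LNCDAT and LHX1 an unnamed lncRNA on the opposite strand. The strand setting of the counting was not given in the sources used here, so reads from those partners cannot be told apart from theirs.

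TBXT, the T-box factor that defines the streak and its mesoderm, was near 0 in naive cells and rose in all 3 media. In the 6 naive libraries it ranged from 0 to 0.541 CPM (mean 0.174), at or under the floor in each. In N2B27 the library pairs read 0.400 and 0.712 CPM at day 2, 2.46 and 6.21 at day 3, 27.4 and 25.6 at day 4, 67.5 and 60.9 at day 6, and 65.7 and 60.3 at day 8. The level climbed steeply between days 2 and 6, and the libraries of days 6 and 8 overlapped. In E8 both libraries of day 2 were at 0, those of day 3 were at 1.2 and 0.413, of day 4 at 3.97 and 5.72, of day 6 at 29.7 and 27.1, and of day 8 at 14.4 and 16.5. In mTeSR the pairs were 8.24 and 6.22 at day 4, 38 and 49.6 at day 6, and 42.1 and 28.5 at day 8. Ordered by mean, N2B27 at days 6 (64.2) and 8 (63.0) stood highest, then mTeSR at days 6 (43.8) and 8 (35.3), E8 at day 6 (28.4) and N2B27 at day 4 of the first experiment (26.5). Libraries overlapped between every pair of neighbours in that order but N2B27 day 8 and mTeSR day 6.

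Against naive cells TBXT was called higher in N2B27 from day 3, by at least 4.23-fold (adjusted p = 7.3e-08), and at day 8 by at least 61.5-fold (5.2e-20), lower bounds set against the floor. In E8 and mTeSR it was called from day 4, by at least 4.73-fold and 7.05-fold. From day 6 to day 8 the log2 difference was -0.03 in N2B27 (adjusted p = 0.97), -0.31 in mTeSR (0.595) and -0.88 in E8 (0.036, under the fold threshold). In E8 both libraries of day 8 lay below both of day 6.

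MIXL1, a paired-type homeobox factor of the streak, was already present in naive cells, and its naive level differed between experiments. On serum it read 9.96 and 17.2 CPM, on Geltrex in the first experiment 19.98 and 20.2, and on Geltrex in the second 2.39 and 3.87. The second experiment's naive libraries lay below the others with no overlap (log2 fold change -2.64 ± 0.33 against Geltrex of the first experiment, adjusted p = 1.4e-06). These are the 2 libraries whose names and titles give different days. Of all genes, 4.67% were called either way in that comparison, and MIXL1 was the 1 member among them. Geltrex against serum in the first experiment gave 0.56 (adjusted p = 0.27), with 0.048% of all genes called. No member was called by edgeR or DESeq2 there, and 3 (TBXT, MIXL1 and APLNR) had an unadjusted p under 0.05.

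In N2B27 MIXL1 read 8.00 and 4.27 CPM at day 2, 10.6 and 14.2 at day 3, 28.4 and 31.2 at day 4, 91.9 and 105 at day 6, and 145 and 100 at day 8. In E8 the pairs were 2.83 and 1.64, 3.35 and 3.30, 3.97 and 4.34, 14.7 and 13.0, and 12.7 and 12.5 over the same days. In mTeSR they were 6.12 and 9.90 at day 4, 64.8 and 64.4 at day 6, and 109 and 85.9 at day 8. The order of the means put N2B27 day 8 (123) first, then N2B27 day 6 (98.6) and mTeSR day 8 (97.2), whose libraries overlapped one another, then mTeSR day 6 (64.6). E8 never passed its range in the first experiment's naive cells.

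Against the 6 naive libraries MIXL1 was called higher in N2B27 at days 6 (2.93 ± 0.31, adjusted p = 1.1e-09) and 8 (3.24 ± 0.30, 6.8e-11) and in mTeSR at days 6 and 8. At day 2 in N2B27 it differed from them by -1.05 (adjusted p = 0.072, not called). It was called lower there against Geltrex of the first experiment only (-1.68, 9.6e-06), against serum only (-1.12, 0.0034), with no filter (-1.04, 0.00042), and without replicate 1 (-1.22, 0.016) or 2 (-1.20, 0.023) of the second experiment's naive cells. In E8 it was called lower at days 2 (-2.53, adjusted p = 0.0018), 3 (-1.95, 0.0037) and 4 (-1.63, 0.0076), where 10.7%, 5.99% and 7.21% of all genes were called lower. On those days E8 (1.64 to 4.34 CPM) overlapped with the naive libraries of the second experiment and lay below the 4 of the first (9.96 to 20.2) with no overlap. Against Geltrex of the first experiment only, MIXL1 in E8 differed by -3.17 (adjusted p = 3.0e-08), -2.58 (2.9e-08) and -2.27 (8.5e-08) at days 2, 3 and 4. Against all 6 naive libraries some of the calls rested on 1 E8 library. The day 2 call was lost without E8 replicate 2 (adjusted p = 0.058), and the day 4 call without E8 replicate 1 (0.078) or 2 (0.062). At day 4 in N2B27 the change over both experiments was 0.80 (adjusted p = 0.026, under the fold threshold). Within the first experiment it was 0.57 against Geltrex (0.036) and 1.13 against serum (0.00015, called higher), and within the second, which had naive cells on Geltrex, it was 2.15 (1.1e-05). The difference between the 2 experiments in the change from Geltrex, a comparison chosen after the values were seen, was 1.58 ± 0.43 (adjusted p = 0.013), where 6.48% of all genes were called. It lost the call without N2B27 day 4 replicate 2 of the second experiment (0.057) or its naive replicate 1 (0.10). The cause of the difference between experiments was not tested.

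Upstream sequence is shown for TBXT and MIXL1 because XAV bears on canonical WNT signalling and, among the matched members, a window of each held a TCF/LEF motif. TBXT had 2 RefSeq windows, and the other one, at the gene's outer start (chr6:166168656-166168905), held none of the letters searched. Sequences are RefSeq (GRCh38.p14), 5′ to 3′ on the gene's strand, ending at or before the transcript start. Capitals mark motif matches on either strand. TBXT spans chr6:166167852-166168101 (minus strand) before the second of its RefSeq starts, inside the gene's span but outside the exons of its coding transcripts. MIXL1 spans chr1:226223414-226223617 (plus strand) and ends where the GENCODE gene begins.
TBXT: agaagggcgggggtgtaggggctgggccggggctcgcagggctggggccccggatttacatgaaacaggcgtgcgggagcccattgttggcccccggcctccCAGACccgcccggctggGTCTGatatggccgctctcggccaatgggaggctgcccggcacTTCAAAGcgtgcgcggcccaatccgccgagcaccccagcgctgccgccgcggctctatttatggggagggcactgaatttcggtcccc
MIXL1: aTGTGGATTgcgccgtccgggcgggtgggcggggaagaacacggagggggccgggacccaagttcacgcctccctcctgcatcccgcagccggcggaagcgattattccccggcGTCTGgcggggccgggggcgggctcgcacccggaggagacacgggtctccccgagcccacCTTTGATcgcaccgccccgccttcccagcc

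The letters searched were CTTTGAT and CTTTGAA for TCF/LEF, AATCCACA for FOXH1 (a partner of SMAD proteins in NODAL signalling), CAGAC for SMAD, GGTGTGA for T-box and GGATTA for bicoid-type homeodomains such as GSC. RefSeq windows of 250 bases before the start were matched for 4 of the 7 members: TBXT, MIXL1, EOMES and GSC. Positions count from the RefSeq start, and for MIXL1 46 bases lie between the end of the sequence shown and that start. CTTTGAT occurred in MIXL1, starting at -76, and in 2.26% of 35116 windows. CTTTGAA occurred in the TBXT window at -88 and in 3.81% of windows. AATCCACA occurred in MIXL1 at -249 and in 0.709% of windows. CAGAC, which is short, was found in 3 of the 4 members and in 38% of windows. GGTGTGA (2.76% of windows) and GGATTA (5.62%) were found in none of the 4 members' windows. The TBXT window held 69.6% G and C and the MIXL1 window of 250 bases 74.0%, against a median of 58% over all windows. A match describes letters only.

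**Figure D1:**
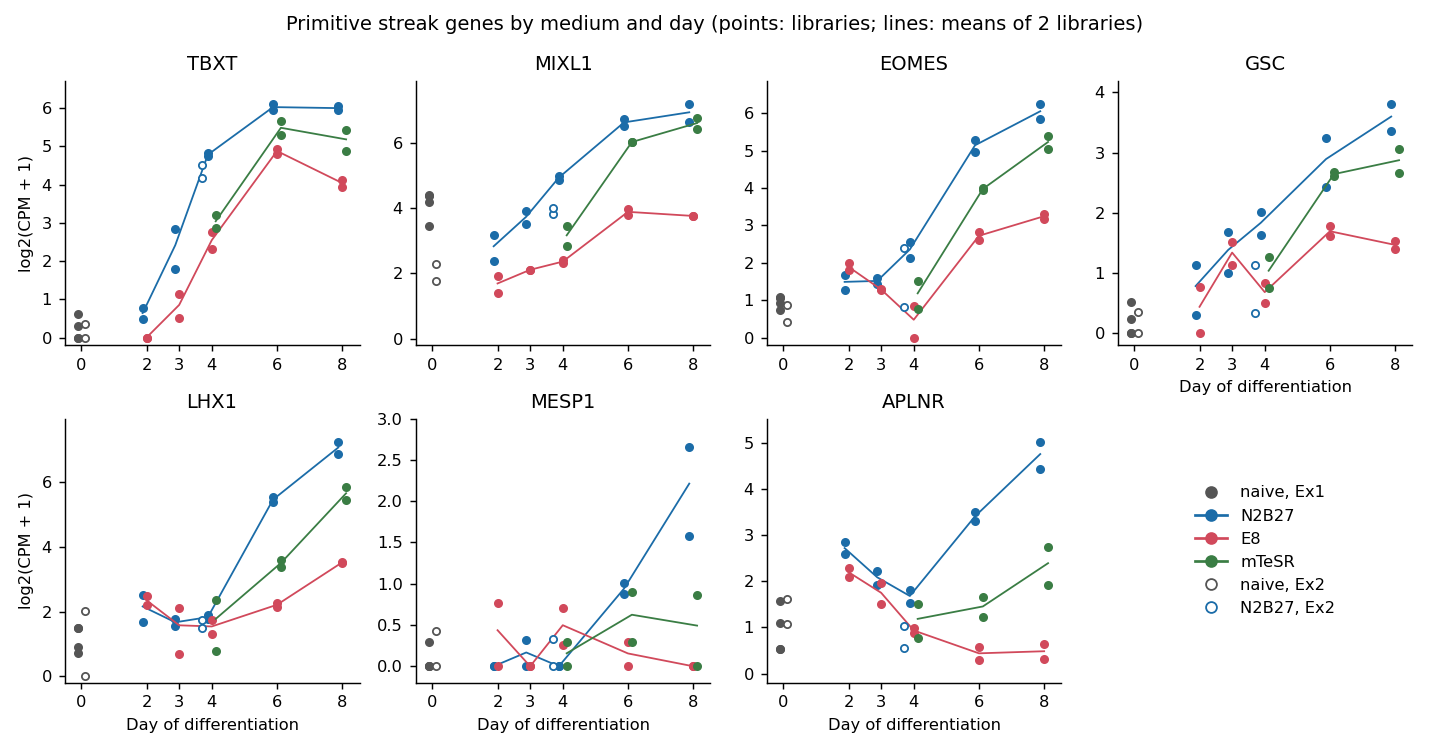
Expression of the 7 members as log2(CPM + 1) against the day of differentiation. Points are libraries, lines join means of 2 libraries of the first experiment, and open points are the second experiment. N2B27 (blue) lay above E8 (red) for the 6 tested members at days 6 and 8, and naive MIXL1 (grey) of the second experiment lay below that of the first.

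EOMES, the T-box factor of streak, endoderm and cardiac mesoderm, rose mostly after day 4. It ranged from 0.341 to 1.11 CPM in the naive libraries (mean 0.819). In N2B27 it read 2.20 and 1.42 at day 2, 1.72 and 2.00 at day 3, 4.85 and 3.40 at day 4, 30.4 and 38.3 at day 6, and 74.5 and 56.4 at day 8. At day 6 and day 8 every library was above every library of earlier days. In E8 the pairs were 2.48 and 2.95, 1.44 and 1.45, 0 and 0.789, 5.07 and 6.15, and 8.06 and 8.95. In mTeSR they were 0.706 and 1.84 at day 4, 15.0 and 14.4 at day 6, and 41.3 and 31.9 at day 8. Against naive cells EOMES was called higher in N2B27 from day 4 (1.98 ± 0.36, adjusted p = 3.5e-05, over the 4 libraries of both experiments). The first experiment's pair at day 4 lay above every naive library, and the second's, at 0.782 and 4.28 CPM, overlapped with them. At day 8 it was called higher in all 3 media, at means of 65.4 CPM in N2B27 (log2 fold change 6.21 ± 0.28, adjusted p = 5.6e-19), 36.6 in mTeSR (5.37 ± 0.30) and 8.50 in E8 (3.27 ± 0.37). The naive libraries held 1 to 6 counts of EOMES each, so the size of these changes depends on few counts.

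GSC, the organiser homeobox factor, was counted sparsely. Naive libraries ranged from 0 to 0.437 CPM, under the floor. In N2B27 it read 1.2 and 0.237 CPM at day 2, 2.21 and 1.00 at day 3, 2.08 and 3.05 at day 4, 4.38 and 8.46 at day 6, and 13.0 and 9.21 at day 8. At day 8 it was at least 10.8-fold above naive cells in N2B27 (adjusted p = 2.1e-10), at least 6.17-fold in mTeSR (7.33 and 5.32 CPM) and at least 1.72-fold in E8 (1.87 and 1.65 CPM). Its calls against naive cells on days 3 and 4 rested on few counts, and the day 3 calls were lost without N2B27 replicate 1 (adjusted p = 0.13) or, in E8, without replicate 2 (0.067). The mTeSR day 4 call was lost without replicate 1 (0.29). Within the second experiment alone N2B27 at day 4 differed from naive cells by 2.10 (adjusted p = 0.24).

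LHX1, a LIM homeobox factor of the node and anterior mesendoderm, rose late and far. Naive libraries ranged from 0 to 3.04 CPM (mean 1.36). In N2B27 it read 2.20 and 4.75 at day 2, 1.97 and 2.40 at day 3, 2.43 and 2.69 at day 4, 41.3 and 45.3 at day 6, and 151 and 118 at day 8. It stayed under 5 CPM to day 4 and rose at both later steps, by 4.07 ± 0.37 to day 6 (adjusted p = 2.6e-09) and by 1.63 ± 0.26 to day 8 (0.00011), on the log2 scale. In mTeSR it read 0.706 and 4.14, 9.51 and 11.2, and 42.9 and 56.5 at days 4, 6 and 8. In E8 it read 4.60 and 3.61 at day 2, 3.35 and 0.619 at day 3, 1.46 and 2.37 at day 4, 3.86 and 3.41 at day 6, and 10.7 and 10.4 at day 8. Against naive cells at day 8 it was 94.0-fold higher in N2B27, 34.8-fold in mTeSR and 7.39-fold in E8. The naive libraries held 0 to 11 counts of LHX1 each, so these folds depend on few counts and on the naive cells used.

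APLNR, the receptor, was highest in N2B27 and was at the floor in E8 from day 6. Naive libraries ranged from 0.437 to 2.05 CPM (mean 1.19). In N2B27 it read 5 and 6.17 at day 2, 3.69 and 2.80 at day 3, 1.91 and 2.51 at day 4, 8.96 and 10.3 at day 6, and 31.5 and 20.6 at day 8. It was high early, low at day 4 and highest at day 8. In E8 it read 3.89 and 3.28, 2.87 and 1.86, 0.835 and 0.986, 0.483 and 0.228, and 0.562 and 0.235, so that both later days were at the floor. In mTeSR it read 0.706 and 1.84 at day 4, 1.33 and 2.16 at day 6, and 5.70 and 2.80 at day 8. Against naive cells it was 21.7-fold higher in N2B27 at day 8 (4.44 ± 0.36, adjusted p = 2.3e-12) and 3.58-fold in mTeSR (0.0022), a call lost without mTeSR replicate 1 (0.17). In E8 at day 8 the change was -1.43 (adjusted p = 0.12). Mean naive APLNR was 0.440 CPM on serum and 1.55 and 1.58 on Geltrex in the first and second experiment. With 2 to 11 counts a naive library, these changes depend on the naive cells used.

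MESP1, a bHLH factor of nascent mesoderm, was counted above 5 only in N2B27 at day 8, with 24 and 11 counts (5.29 and 1.99 CPM). It held 4 and 5 counts in N2B27 at day 6. With no filter it was tested as well, and all 7 members were called higher in N2B27 at days 6 and 8. A filter of more than 10 counts in 2 libraries gave the same, but MESP1 met it only through the 2 libraries of N2B27 at day 8. Its call at day 8 is then no separate evidence, and that at day 6 rests on 4 and 5 counts. MESP1 has a close relative, MESP2, which was called higher in N2B27 at day 8 by at least 3.1-fold, and how the counting divided reads between them was not given in the sources used here.

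Which tested members were called higher than naive cells changed from day to day. In N2B27 they were 2 of 6 at day 2 (LHX1 and APLNR), 3 at day 3 (TBXT, GSC and APLNR), 3 at day 4 (TBXT, EOMES and GSC), and 6 at days 6 and 8. LHX1 was not called at days 3 and 4 nor APLNR at day 4, and MIXL1 was first called at day 6. Over all genes the shares called higher were 9.86%, 9.78%, 12.5%, 16.4% and 16.9%. In E8 the counts were 3 (EOMES, LHX1 and APLNR), 1, 1, 4 and 4, against 13.9%, 11.8%, 13.6%, 15.8% and 18.2% of all genes. In mTeSR they were 2, 5 and 6 at days 4, 6 and 8, against 12.8%, 15.7% and 16.9%. The early calls were the weakest: LHX1 at day 2 in N2B27 (2.40-fold, adjusted p = 0.049) was lost without N2B27 replicate 2 (0.56), either naive serum replicate (0.080 and 0.081) or naive Geltrex replicate 1 of the second experiment (0.071). At day 2 in E8, LHX1 and APLNR were lost without either E8 library (0.056 to 0.15) and EOMES without replicate 2 (0.11). Against the naive Geltrex cells of the first experiment only, the one in which E8 was run, none of the 3 passed at day 2 in E8 (EOMES 0.061, LHX1 0.12, APLNR 0.080), nor did LHX1 at day 2 in N2B27 (0.24). APLNR at day 2 in N2B27 (2.22 ± 0.44, adjusted p = 0.00019) kept its call without any 1 library. At day 3 its call was lost without N2B27 replicate 1 (0.20) or 2 (0.053), and at day 6 in E8 the call of LHX1 was lost without either E8 library (0.16 and 0.096) or either naive serum library (0.052 and 0.051). Against naive Geltrex cells of the first experiment only, APLNR at day 3 in N2B27 (1.00, adjusted p = 0.14) and LHX1 at day 6 in E8 (1.00, 0.17) did not pass either.

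Between consecutive days in N2B27, 1 of 6 members was called higher from day 2 to 3 (TBXT), 2 from day 3 to 4 (TBXT and MIXL1), 5 from day 4 to 6 (all but GSC) and 2 from day 6 to 8 (LHX1 and APLNR). The shares of all genes were 2.02%, 0.798%, 3.08% and 1.17%. In E8 the counts were 0, 1 (TBXT), 3 (TBXT, MIXL1 and EOMES) and 1 (LHX1), against 4.32%, 0.69%, 1.97% and 0.516%. In mTeSR they were 5 (all but APLNR) from day 4 to 6 and 2 (EOMES and LHX1) from day 6 to 8, against 2.29% and 0.618%. From day 2 to 3 in E8, where edgeR and DESeq2 called 0, TBXT had an unadjusted p under 0.05, 1 member in all. The interval between days 4 and 6 held the most calls in each medium. GSC from day 4 to 6 in N2B27 was 1.32 (adjusted p = 0.075). Calls that rested on 1 library were TBXT from day 2 to 3, lost without N2B27 day 3 replicate 2 (0.054), MIXL1 from day 3 to 4, lost without day 3 replicate 1 (0.057), TBXT from day 3 to 4 in E8, lost without day 4 replicate 2 (0.083), and LHX1 from day 4 to 6 in mTeSR, lost without day 4 replicate 1 (0.15). APLNR from day 6 to 8 in N2B27 was lost without either day 6 library (0.094 and 0.070) or day 8 replicate 1 (0.20). LHX1 from day 6 to 8 in E8 was lost without either day 6 library or day 8 replicate 1 (0.22 to 0.32), EOMES from day 6 to 8 in mTeSR without either day 6 library or day 8 replicate 1 (0.056 to 0.094), and GSC from day 4 to 6 in mTeSR without any 1 of its 4 libraries (0.064 to 0.14).

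From day 4 on, each tested member had a lower mean in E8 than in N2B27 at the same day, and more members were called at later days. Of 6 members, 1 was called lower at day 2 (MIXL1), 2 at day 3 (TBXT and MIXL1), 3 at day 4 (with EOMES) and 6 at days 6 and 8. The shares of all genes called lower were 1.72%, 0.606%, 1.13%, 2.97% and 3.96%. At day 8 the difference was -2.03 ± 0.22 for TBXT, -3.27 ± 0.21 for MIXL1, -2.94 ± 0.27 for EOMES, -2.62 ± 0.51 for GSC and -3.67 ± 0.30 for LHX1 on the log2 scale. APLNR, at the floor in E8, was at least 36.9-fold lower. The adjusted p-values at day 8 ran from 6.4e-13 (MIXL1) to 0.00038 (GSC), and no pair of libraries overlapped. The calls at days 2 and 3 and that of GSC at day 6 were less firm. MIXL1 at day 2 was lost without N2B27 replicate 1 (0.37), E8 replicate 1 (0.054) or E8 replicate 2 (0.26), TBXT at day 3 without N2B27 replicate 2 (0.14) or E8 replicate 2 (0.061), and GSC at day 6 (-1.52, adjusted p = 0.046) without N2B27 replicate 2 (0.41) or either E8 library (0.15 and 0.24).

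From day 4 to 8 the mean of each tested member in mTeSR lay between those in E8 and N2B27. Against N2B27, 3 of 6 members were called lower at day 4 (TBXT, MIXL1 and EOMES), 3 at day 6 (EOMES, LHX1 and APLNR) and 2 at day 8 (LHX1 and APLNR), with 0.768%, 1.4% and 2.15% of all genes. MIXL1 at day 8 differed from N2B27 by -0.33 (95% interval -0.69 to 0.03, adjusted p = 0.25), whereas LHX1 differed by -1.43 ± 0.26 and APLNR by -2.60 ± 0.37. Without mTeSR day 8 replicate 1, TBXT (-1.14) and EOMES (-1.03) also passed at day 8, as did EOMES without N2B27 replicate 2 (-1.02). EOMES at day 4 was lost without any 1 of its 4 libraries (0.075 to 0.36) and at day 6 without N2B27 replicate 2 (0.057). Against E8, 0, 2 (MIXL1 and EOMES) and 6 members were called higher in mTeSR at days 4, 6 and 8, with 0.006%, 0.63% and 2.51% of all genes. At an unadjusted p under 0.05 and day 4, 1 member (MIXL1, 0.94) differed and DESeq2 called 0. At day 8 MIXL1 was 7.70-fold higher in mTeSR than in E8 and TBXT 2.29-fold. The day 8 calls of GSC (1.82) were lost without any 1 of 4 libraries (0.061 to 0.16), that of TBXT without mTeSR replicate 1, where it fell under the fold threshold (0.89), and that of EOMES at day 6 without any 1 library (0.069 to 0.16).

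**Figure D2:**
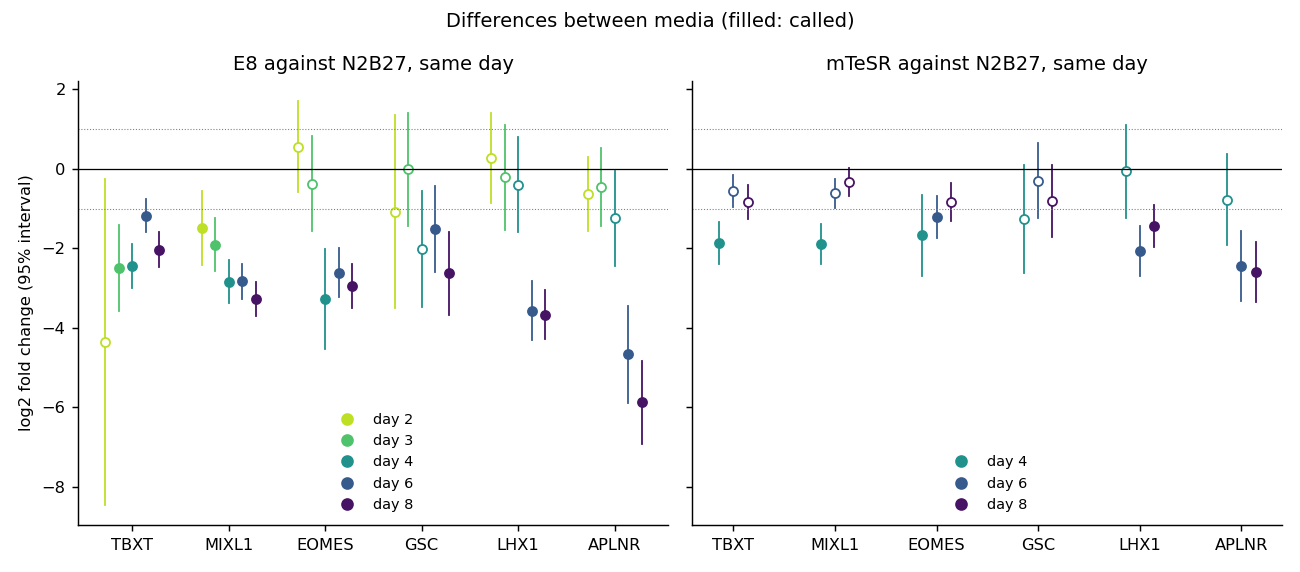
Log2 fold change with its 95% interval for the 6 tested members, E8 (left) and mTeSR (right) against N2B27 at the same day, with darker colours for later days. Filled points were called and dotted lines mark a change of 1 in size. All 6 members were called lower in E8 at days 6 and 8, while 2 were called lower in mTeSR at day 8.

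The change from day 4 to day 8 itself was compared between media. It was smaller in E8 than in N2B27 for LHX1 (difference -3.26 ± 0.72, adjusted p = 0.0078) and APLNR (-4.62 ± 0.95, 0.0040), 2 of 6 members where 1.43% of all genes were called. APLNR was at the floor in E8 at day 8 (3 and 1 counts), so its fitted difference depends on the prior count and is no bound. It was larger in mTeSR than in N2B27 for MIXL1 (1.56 ± 0.30, adjusted p = 0.0019), with 1.69% of genes, and larger in mTeSR than in E8 for MIXL1 (2.00 ± 0.42, 0.0062), with 0.96%. For TBXT the E8 to N2B27 difference was 0.41 (95% interval -0.32 to 1.14). Each of these calls was lost without some day 4 library: those of LHX1 and APLNR were lost without E8 replicate 2 (0.20 and 0.071), and those of MIXL1 without mTeSR replicate 1 (0.058 and 0.056) or, against E8, without E8 replicate 2 (0.087).

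With XAV or FAX at day 4 most members did not pass the test, and MIXL1 was called higher with FAX. In the second experiment TBXT read 16.9 and 21.9 CPM in N2B27, 9.46 and 10.8 with XAV and 13.2 and 15.9 with FAX. XAV lay below N2B27 in both libraries, with a log2 fold change of -0.94 ± 0.25 (95% interval -1.46 to -0.42, adjusted p = 0.059), and FAX differed by -0.42 (-0.92 to 0.09, 0.72). MIXL1 read 13.3 and 15.2 in N2B27, 20.7 and 21.7 with XAV and 32.6 and 33.8 with FAX. The 3 conditions did not overlap. MIXL1 differed by 0.57 ± 0.24 with XAV (0.09 to 1.05, adjusted p = 0.38), by 1.22 ± 0.23 with FAX (0.75 to 1.69, 0.0033) and by 0.65 between FAX and XAV (0.21 to 1.08, 0.81). The FAX call was lost without N2B27 replicate 1 (0.095) or FAX replicate 2 (0.079).

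APLNR read 1.04 and 0.476 CPM in N2B27, 2.01 and 5.18 with XAV and 1.53 and 3.79 with FAX. Both supplemented conditions lay above N2B27, by 2.23 ± 0.61 for XAV (0.99 to 3.46, adjusted p = 0.060) and 1.81 ± 0.65 for FAX (0.48 to 3.14, 0.29). For XAV it passed without XAV replicate 1 (0.024), with no filter (0.032) and when the 4 compared libraries were fitted by themselves (0.043). EOMES read 0.782 and 4.28 in N2B27, 1.41 and 0.996 with XAV and 2.29 and 2.13 with FAX. GSC read 0.261 and 1.19, 1.61 and 0.199, and 1.78 and 1.66, and LHX1 1.82 and 2.38, 2.41 and 2.59, and 1.78 and 3.31 in the same order. None of these 3 genes was called. The 95% intervals of the difference from N2B27 with XAV ran from -2.25 to 0.06 for EOMES, from -1.52 to 2.06 for GSC and from -1.02 to 1.51 for LHX1. With FAX they ran from -1.29 to 0.83, from -0.47 to 2.83 and from -1.03 to 1.59 in the same order. Each of them reaches past a change of 1 in size. Called either way were 0 of 6 members with XAV, 1 with FAX and 0 between FAX and XAV, against 0.57%, 0.336% and 0.012% of all genes. At an unadjusted p under 0.05 the members that differed were TBXT, MIXL1 and APLNR with XAV, MIXL1 and APLNR with FAX, and MIXL1 between the 2. DESeq2 called 0 members with XAV and 0 between FAX and XAV.

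Against the pooled naive cells, 3 members were called higher with XAV (TBXT, GSC and APLNR) and 4 with FAX (TBXT, MIXL1, EOMES and GSC), with 10.5% and 10.3% of all genes. TBXT was at least 9.87-fold and 14.2-fold higher. The other calls were less firm: APLNR with XAV was lost without XAV replicate 2 (0.47), GSC with XAV without XAV replicate 1 (0.93) or any 1 of 4 naive libraries (0.062 to 0.083), and EOMES with FAX without either FAX library (0.18 and 0.14), naive serum replicate 2 or naive Geltrex replicate 1 of the second experiment (both 0.061). Against the second experiment's own naive cells APLNR with XAV (1.21, adjusted p = 0.081), GSC with XAV (2.36, 0.16) and EOMES with FAX (1.81, 0.056) did not pass. There MIXL1 was called higher by 2.72 ± 0.33 with XAV and by 3.36 ± 0.32 with FAX. Between the 2 experiments' N2B27 cultures at day 4, MIXL1 was lower in the second (-1.06 ± 0.23, adjusted p = 0.0053), with 1.01% of all genes called, and it was the 1 member called. That call was lost without N2B27 replicate 2 of the first experiment (0.076) or either replicate of the second (0.096 and 0.062).

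**Figure D3:**
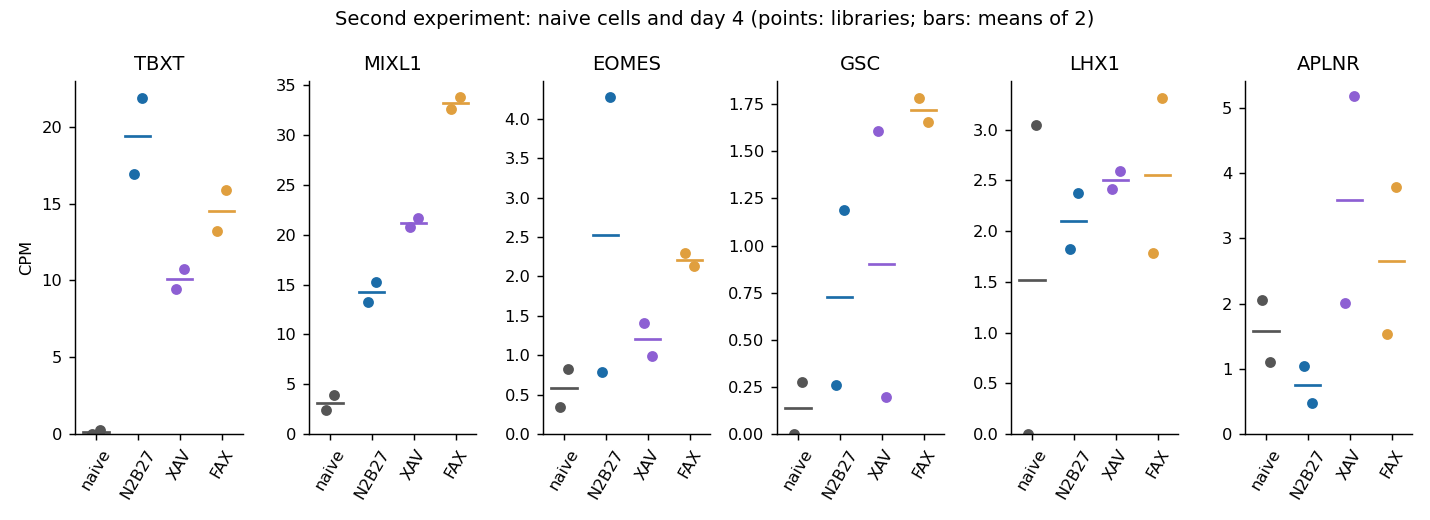
CPM of the 6 tested members in the second experiment, in naive cells and in N2B27, XAV and FAX at day 4, on linear axes that start at 0. Points are libraries and short horizontal lines are means of 2. Mean MIXL1 was 14.3 in N2B27, 21.2 in XAV and 33.2 in FAX, and mean TBXT was 19.4, 10.1 and 14.6 in the same order.

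Among the streak's signals, BMP4, the ligand upstream of WNT3 in the streak, was called lower with XAV (24.7 against 70.3 CPM, -1.51 ± 0.15, adjusted p = 8.7e-08) and with FAX (19.5 CPM, -1.85 ± 0.16, 1.3e-08). LEFTY2, an antagonist and target of NODAL, was called higher with FAX (158 against 44 CPM, 1.84 ± 0.23, adjusted p = 7.5e-06), and APELA, an APLNR ligand, lower (18.1 against 41.1, -1.18 ± 0.17, 8.1e-05). Those were 1 of 17 tested signals and antagonists with XAV and 3 with FAX, where 0.57% and 0.336% of all genes were called either way. LEFTY2 has a close relative in LEFTY1, and how reads were divided between them was not given in the sources used here. Of 11 tested WNT targets edgeR called 0 with XAV and 0 with FAX, and 0 and 1 (SP5) had an unadjusted p under 0.05. AXIN2 differed by 0.21 with XAV (-0.19 to 0.61) and SP5 by -0.51 (-1.11 to 0.08). Of 9 tested genes of epithelial to mesenchymal transition and adhesion, 1 was called lower and 0 higher with each of XAV and FAX. CDH2, N-cadherin, was the one called lower with XAV (3.6 against 13.3 CPM) and FAX (6.20). Markers of other cell types were compared in the same libraries, and their part in these results was not tested. Of 9 tested amnion and trophectoderm markers 2 were called lower with XAV, BMP4 and GATA3 (12.7 against 28.7 CPM), and 1, BMP4, with FAX, and 0 were called higher with either. The sum over all 11 of them was 565 to 580 CPM in N2B27, 497 to 525.9 with XAV and 517 to 540 with FAX. Of 4 tested neural ectoderm markers and 7 hypoblast markers edgeR called 0 with XAV and 0 with FAX. At an unadjusted p under 0.05 there were 2 neural and 2 hypoblast markers with XAV and 2 and 3 with FAX. NES was lower by less than the fold threshold with both (-0.83, adjusted p = 0.00023, and -0.58, 0.020), and so was COL4A1 with XAV (-0.69, 0.021). The neural sum over 7 genes was 242 CPM in both N2B27 libraries, 149 to 152 with XAV and 173 to 175 with FAX, and the hypoblast sum was 34.4 to 35.8, 24.0 to 25.3 and 24.3 to 25.9. With XAV and FAX most of the neural sum was NES (means of 119 and 141 CPM). Most of the hypoblast sum was COL4A1 (18.0 and 18.8), so neither sum speaks for its list as a whole.

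Other genes of the streak and its descendants were compared between N2B27 at day 8 and naive cells, where 16.9% of all genes were called higher and the median log2 fold change over all genes was -0.03. Of 13 tested further streak and mesoderm transcription factors, 10 were called higher and none lower (median 4.92, against 6.06 over the 6 tested members). HAND1, a bHLH factor of lateral and extraembryonic mesoderm, was at least 17.4-fold higher, EVX1, a homeobox factor of the posterior streak, at least 10.3-fold, and GATA6 read 31.7 CPM against 0.294 in naive cells, where a library held 0 to 4 counts. Of 6 tested axial and endoderm genes, 4 were called higher (SOX17, FOXA2, CXCR4 and OTX2), with SOX17 at least 59.3-fold. Of 9 genes of epithelial to mesenchymal transition and adhesion, 6 were called higher, with CDH2 at 169 against 0.741 CPM (1 to 8 counts a naive library) and VIM, vimentin, at least 81.6-fold.

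Signals and WNT targets moved less evenly. Of 17 tested signals and antagonists, 8 were called higher and 2 lower in N2B27 at day 8 (median 0.41). CER1, a secreted antagonist of NODAL, BMP and WNT, was at 0 in all naive libraries and at least 30.9-fold higher, WNT5A at least 40.1-fold, APLN, an APLNR ligand, at least 9.05-fold and BMP4 13.0-fold, while APELA and LEFTY2 were called lower. Of 11 WNT targets, 5 were called higher, with SP5 at 174 against 1.44 CPM and LGR5 at least 7.79-fold. Of the 3 pluripotency factors POU5F1, NANOG and SOX2, edgeR called 0 at day 8 in N2B27, E8 and mTeSR, with 1 at an unadjusted p under 0.05 in each medium.

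The same lists in E8 against N2B27 at day 8 were lower in part, where 3.96% of all genes were called lower. Called lower were 8 of 11 WNT targets (median -1.16), 10 of 13 streak and mesoderm factors (-3.48), 5 of 6 axial and endoderm genes (-1.89), 6 of 17 signals and antagonists (-0.58) and 3 of 9 adhesion genes (-0.47), and none was called higher. The median over the members was -3.11 and over all genes 0.01. SP5 read 21.1 CPM in E8 and 174 in N2B27, AXIN2 22.9 and 48.2, and WNT5A 2.61 and 41.1. CDX2, a caudal factor of posterior mesoderm and trophectoderm, was at least 24.0-fold lower. In mTeSR against N2B27 at day 8, 1 of 11 WNT targets (BAMBI) and 8 of 13 streak and mesoderm factors were called lower, with 2.15% of all genes.

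**Figure D4:**
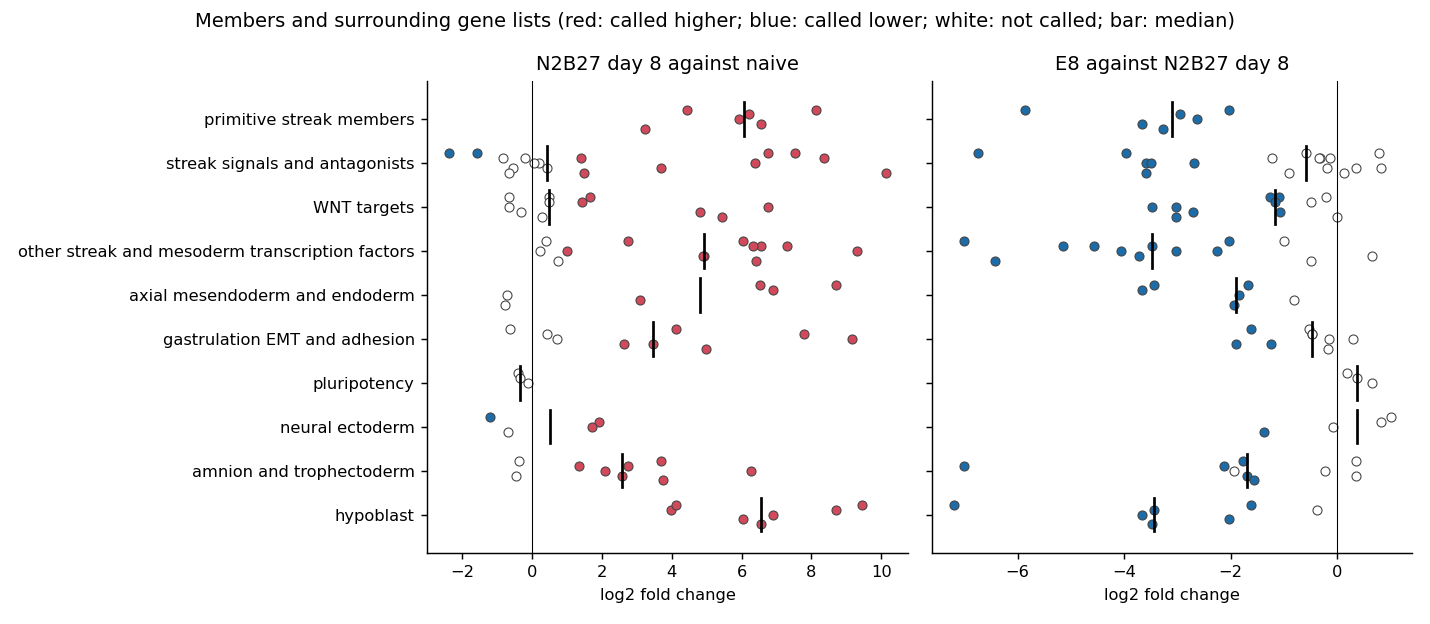
Log2 fold changes of the tested genes in each list, for N2B27 day 8 against naive (left) and E8 against N2B27 at day 8 (right). Each point is a gene, red where called higher, blue where called lower and white where not called, and bars are medians. Members had a median of 6.06 on the left and -3.11 on the right, while the 3 pluripotency genes were not called.

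Marker lists of other cell types were followed in the same libraries, and their part in these results was not tested. At day 8 the hypoblast sum was lowest in E8, as was that of the members (48.1 to 49.96 CPM, against 365 to 484 in N2B27), while the neural sum was highest in E8. The amnion sum was highest in E8 too, but its order between E8 and N2B27 depended on TFAP2C, given below. Of 7 hypoblast markers, 5 of which stand in another list as well, all 7 were called higher in N2B27 and in mTeSR at day 8 and 6 in E8. Their summed level was 4.77 to 13.2 CPM in naive cells, 274 to 293 in N2B27, 147 to 160 in mTeSR and 99.0 to 101 in E8 at day 8. APOA1, the one at 0 in every naive library, was at least 19.1-fold higher in N2B27. Of 9 tested amnion and trophectoderm markers, 7 were called higher in N2B27 at day 8, 3 in E8 (2 lower) and 3 in mTeSR (1 lower), where 16.9%, 18.2% and 16.9% of all genes were called higher. The sum over all 11 of them was 344 to 495 CPM in naive cells, 505 to 592 in N2B27, 524 to 555 in mTeSR and 617 to 635 in E8, with VTCN1 at 0 in N2B27 and KRT7 at 0 in mTeSR. Most of that sum was TFAP2C, which naive cells express too, with means of 430 CPM in naive cells, 313 in N2B27, 429 in mTeSR and 398 in E8. Of 4 tested neural ectoderm markers, 2 (NES and PAX6) were called higher in N2B27 and 1 (HESX1) lower. In E8 and in mTeSR NES and PAX6 were called higher as well and ZIC1 lower. The sum over 7 neural genes was 41.1 to 69.5 CPM in naive cells and, at day 8, 164 to 210 in mTeSR, 174 to 185 in N2B27 and 282 to 343 in E8, with SOX1 at 0 in mTeSR.

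Across the 19 group means the members followed one another to different degrees, as a description over groups that share one line and a common course of days. Pearson's r of log2 CPM was 0.956 for EOMES with LHX1, 0.904 for EOMES with GSC and 0.780 for MIXL1 with TBXT, and it was lowest for APLNR with TBXT, 0.243. Among 11457 genes that reached 10 CPM in some group, those most like TBXT were SLC2A3 (0.974), SPOCK2 (0.968) and FAM110B (0.962). For MIXL1 they were LRRC3 (0.935), ADAM19 (0.918) and SKA1 (0.889), for EOMES LHX1, SYNPR (0.953) and GAD1 (0.953), and for GSC TACR1 (0.966), MEX3A (0.944) and TRPV4 (0.936). LHX1 was most like ERBB4 (0.980), SOX17 (0.973) and RHOBTB3 (0.972), and APLNR like FRMD4B (0.892), PRKAB2 (0.853) and PCLAF (0.839).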

How the data were processed

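QuantSeq 3′ mRNA libraries of Shef6 cells were deposited as 1 table of counts per gene. Per the labels and the study's methods, the authors used FastQC 0.11.9, Salmon 1.9.0, STAR 2.7.10a and tximport with hg38. The annotation release and the strand setting were not given in the sources used here. The deposited counts are whole numbers and tag the 3′ end, so they do not scale with transcript length.

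Counts were tested with edgeR 4.0.16 in R 4.3.3: filterByExpr kept 16674 of 57133 genes (99.6% of counts), TMM scaled the libraries, and glmQLFit and glmQLFTest were fitted to all 38 libraries. Comparisons against naive cells pooled 6 naive libraries and 4 of N2B27 at day 4. All others used 19 groups of 2. Values are CPM on TMM-scaled totals, with the floor at 3 counts per library. Motifs and positions came from RefSeq windows and GENCODE v44. The steps were tested on simulated data.

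The members, the gene lists and the tests were chosen with earlier results of these data known. All members were named. From each list up to 4 called genes with the largest change were named, beside further genes on which a result turned. Alternatives were RLE and plain totals, other filters, DESeq2 1.42.0, other naive libraries, a replicate block, a fit to the compared libraries alone and each library left out.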

Additional observations from a re-analysis of the deposited data

Results flagged for a closer look

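The change from day 4 to day 8 differed between media for 3 members. In E8 against N2B27 the difference was -3.26 for LHX1 and -4.62 for APLNR on the log2 scale. APLNR was at the floor in E8 at day 8, so its value depends on the prior count and is no bound. For MIXL1 it was 1.56 in mTeSR against N2B27 and 2.00 in mTeSR against E8. The change of MIXL1 from naive cells to N2B27 at day 4 differed by 1.58 between the second and the first experiment. Each passed the test of the difference itself, by edgeR's quasi-likelihood test, and each lost the call when some single library was left out. The comparison of MIXL1 between experiments was chosen after the values were seen.

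One library was flagged as apart from the others of its condition. MESP1 was at 0.261 CPM in replicate 1 of N2B27 at day 4 in the second experiment and at 0 in the other 3 libraries of that condition, which is a single count. It was 1 of 14 sets of libraries screened in this way. With 0 in the other 3 libraries any single count is flagged, so the flag carries no weight.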

How the results depend on the processing

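Calls at days 6 and 8 against naive cells were kept more often than those at days 2 to 4. Over 844 values of single genes recomputed without 1 library, 83 lost the call and 9 gained one. The replicate numbers did not pair the libraries (over 171 pairs of groups the correlation of deviations ran from -0.35 to 0.258, median 0.003). With the replicate number as a block, 0 of 46 counts of members moved by over 1.5 times and 2 of 145 values lost the call, each taking its count from 3 to 2: GSC with XAV against naive cells (2.33, edgeR adjusted p = 0.053) and EOMES in mTeSR against N2B27 at day 4 (-1.67, 0.052). The cause of the changes below was not tested, except that a fit to the compared libraries by themselves has fewer degrees of freedom.

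In that smaller fit, the counts of members called that moved by over 1.5 times fell from 2 to 1 for N2B27 day 2 against naive cells, 3 to 1 for XAV, 4 to 2 for FAX, 1 to 0 and 2 to 0 for E8 against N2B27 at days 2 and 3, 1 to 0 for N2B27 day 3 against 2, 2 to 1 for N2B27 day 4 against 3, and 1 to 0 for E8 day 4 against 3 and day 8 against 6. They rose from 2 to 4 for mTeSR against E8 at day 6, from 0 to 1 for XAV against N2B27 and from 1 to 2 for the course of mTeSR against N2B27. Calls lost there without such a move were those of APLNR in N2B27 at day 3 (adjusted p = 0.078), LHX1 in E8 at days 2 (0.080) and 6 (0.10) and MIXL1 in E8 at days 3 (0.073) and 4 (0.095), all against naive cells, and of EOMES in mTeSR against N2B27 at day 4 (0.064). With naive cells on serum only, N2B27 day 4 gave 5 in the first experiment and 1 in the second, E8 day 3 gave 3 and mTeSR day 4 gave 1. With Geltrex of the first experiment only, N2B27 day 2 gave 1 and E8 day 2 gave 0. Plain totals gave 1 for N2B27 day 2 and 2 for N2B27 day 3 against 2, as did the filter of more than 10 counts for the latter. No filter gave 1 for XAV against N2B27, and DESeq2 1 for N2B27 day 8 against 6.

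Leaving out single libraries, members called ranged from 1 to 2 and 1 to 3 for N2B27 at days 2 and 3 against naive cells, 0 to 3 and 1 to 2 for E8 at days 2 and 3, 2 to 3 for XAV and 3 to 5 for FAX. Ranges for E8 against N2B27 at days 2 and 3 were 0 to 1 and 1 to 2. For mTeSR against N2B27 they were 2, 2 to 3 and 2 to 4 at days 4, 6 and 8, and for mTeSR against E8 1 at day 6 and 4 to 5 at day 8. XAV and FAX against N2B27 gave 0 to 1. Consecutive days gave 0 to 2, 1 to 2, 5 to 6 and 1 to 3 in N2B27, 0 to 1 in E8 (days 3 to 4 and 6 to 8), and 3 to 4 and 1 to 2 in mTeSR. Courses gave 0 to 2, 0 to 1 and 0 to 2, N2B27 at day 4 in the second against the first experiment 0 to 1, and the difference between them in the change from naive cells 0 to 1. Naive Geltrex between experiments stayed at 1.

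Directions turned only among values not called. Without 1 library, EOMES ran from -1.81 to 0.60 and GSC from -1.76 to 1.69 with XAV, where GSC was also -0.39. With FAX, EOMES ran from -0.95 to 1.47 and LHX1 from -0.24 to 0.64. Between FAX and XAV, LHX1 ran from -0.48 to 0.40, with -0.01 among the values, and APLNR from -1.22 to 0.41, with 0.07 among them. Over all genes 95 were called with XAV and 56 with FAX, and 223 and 141 with no fold threshold, 165 and 134 when fitted by themselves, and 88 with FAX without a filter. At these depths values of a few counts, such as those of GSC and MESP1 before day 6, limit what could be detected.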
